A study of Homo sapiens with 6 samples.

Results

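The 10 genes described here are members of the interleukin-1 (IL-1) family of cytokines and receptors. They are the ligand genes IL1A, IL1B, IL18 and IL33, the ligand-binding receptor genes IL1R1, IL1RL1, IL1RL2 and IL18R1, the decoy receptor gene IL1R2 and the shared co-receptor gene IL1RAP. They were taken by gene name, with IL33, IL1RL1 and IL1RAP as the central axis, and are 10 of the 58721 genes in the count table. The set was proposed with results of the same comparison in view, so the values of its members are given as a description without a test.

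Polyadenylated RNA was sequenced from A375, an established human melanoma line. The 3 knockout libraries came from cells that carried a guide RNA against SOX10, a transcription factor gene of the neural crest and melanocyte lineage, and their genotype is given as SOX10 knockout. The 3 control libraries came from cells that carried a guide RNA against mCherry, a fluorescent protein gene absent from the human genome, and their genotype is given as WT. Both groups were A375 cells in serum-containing DMEM, and no added cytokine or drug is named for either. Where the SOX10 guide cuts, and whether each group was 1 clone or a mixed population, is not given in any source used here.

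Each IL-1 family ligand binds its own receptor, and the pair then recruits a co-receptor that brings the intracellular signalling domains together. IL-1 alpha and IL-1 beta use IL1R1, and IL-33 uses ST2, the product of IL1RL1. Both receptors, and the IL-36 receptor encoded by IL1RL2, depend on IL1RAP as co-receptor, while IL-18 uses IL18R1 with IL18RAP. Signalling runs through MYD88 and IRAK kinases to NF-kappaB and MAP kinases. In skin, IL-1 alpha, IL-18 and IL-33 are held inside epithelial cells and released by damage or processing.

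Library totals were 70075002, 77390247 and 78148565 counts in knockout replicates 1, 2 and 3, and 71793584, 74745810 and 74970700 in control replicates 1, 2 and 3. At this depth 3 counts, taken as the floor, correspond to 0.0383 to 0.0417 CPM, the count scaled to library size, and floors and intervals cover counting error only. SOX10 stood at 47.2, 47.8 and 41.5 CPM in knockout libraries, against 241, 237 and 223 CPM in control libraries (log2 fold change -2.36, SE 0.08, edgeR adjusted p = 1.84e-07). Over its log2 CPM, an exact two-sided permutation test reached p = 0.1, the lowest value possible with 3 libraries on each side. SOX10 RNA was thus lower, not absent, in the libraries labelled knockout, and the gene overlaps POLR2F on the opposite strand. Of the melanocyte markers, TYR had 1 count in all libraries together and MLANA stood at 0.770 ± 0.412 CPM in knockout and 0.874 ± 0.229 CPM in control libraries, while MITF stood at 138 ± 2.29 and 57.5 ± 2.15 CPM in the same order. Of the 9 markers of this list that were tested 3 rose and 4 fell at an adjusted p under 0.05, where 14.0% of all tested genes rose and 14.0% fell. Among those that fell, S100B stood at 1.28 ± 0.134 CPM in knockout and 32.9 ± 4.34 CPM in control libraries (log2 fold change -4.68, adjusted p = 1.17e-07). DCT stood at 0.0657 ± 0.0258 CPM in knockout and 1.62 ± 0.175 CPM in control libraries (log2 fold change -4.59, adjusted p = 5.45e-06). DCT passed the low-count filter through its control libraries alone. Whether replicates were separate cultures is not stated, so the spread behind each p-value may be technical. A value with ± is a mean and SD over n = 3 libraries per group.

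RNA of the IL-33 receptor gene was higher in knockout libraries, where it was the most abundant of the family, while IL1RAP was the most abundant in control libraries. IL1RL1 (ENSG00000115602; chromosome 2, 102311502 to 102352037, plus strand) encodes ST2, made both as a membrane receptor and as a shorter soluble form that binds IL-33 without signalling. It reached 207, 224 and 233 CPM in knockout replicates 1 to 3, against 16.75, 17.5 and 20.3 CPM in control replicates 1 to 3. The groups did not overlap, and the lowest knockout library lay far above the highest control library. The means were 221 ± 13.2 CPM in knockout and 18.2 ± 1.88 CPM in control libraries, a 12.2-fold higher level in knockout (log2 fold change 3.60, SE 0.09). In bulk RNA, more or fewer cells that express a gene and more or less RNA per cell cannot be told apart.

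Human IL1RL1 has more than 1 transcription start. RefSeq windows of 250 bases before to 50 bases after a start (GRCh38.p14) were available for 9 of the 10 genes, 19 windows in all, and were searched on both strands for 5 motifs. The core of SOX sites was searched as ACAAAG, the site of AP-1 as TGANTCA and the site of GATA factors as AGATAA. The TATA box was searched as TATAAA and the site of TEAD factors as GGAATG. The upstream and the downstream window of IL1RL1 are shown because IL1RL1 had the highest level of the family in knockout libraries and because gene-level counts cannot tell its starts, or the soluble from the membrane form, apart. Capitals mark a match to any of the 5 motifs, and each window is written 5′ to 3′ on the plus strand.
IL1RL1 upstream start, chr2:102311313-102311612: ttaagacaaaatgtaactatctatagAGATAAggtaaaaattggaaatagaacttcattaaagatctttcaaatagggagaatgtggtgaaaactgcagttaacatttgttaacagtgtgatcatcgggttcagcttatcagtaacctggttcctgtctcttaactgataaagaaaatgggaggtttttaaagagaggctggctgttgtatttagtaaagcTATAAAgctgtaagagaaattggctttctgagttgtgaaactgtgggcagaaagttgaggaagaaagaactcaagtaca
IL1RL1 downstream start, chr2:102337007-102337306: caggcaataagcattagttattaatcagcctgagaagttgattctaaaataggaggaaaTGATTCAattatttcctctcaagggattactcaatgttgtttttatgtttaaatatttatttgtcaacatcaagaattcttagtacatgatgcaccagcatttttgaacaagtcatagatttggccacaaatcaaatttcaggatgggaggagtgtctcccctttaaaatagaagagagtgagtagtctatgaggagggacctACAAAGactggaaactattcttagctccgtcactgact
In the upstream window AGATAA begins 224 bases before the start and TATAAA 29 bases before it. In the downstream window TGATTCA begins 191 bases before the start and ACAAAG 12 bases after it. Both windows are poor in G and C, 35% and 35.7%, where the median over all windows was 58.7%. Of all 35116 windows, 10.3% hold the GATA motif, 11.5% the TATA box, 7.71% the AP-1 motif, 16.1% the SOX core and 14.0% the TEAD motif. Among the 19 windows of the family, 4 hold the SOX core, 3 the AP-1 motif, 4 the GATA motif, 4 the TATA box and 3 the TEAD motif, and no match in a printed window overlaps another. The SOX core lies in windows of IL1R1, IL1RL1 and IL33, and for IL1R1 the levels of the groups overlapped. A match describes the letters only, and binding was not measured.

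The ligand of this receptor was detected in knockout libraries alone, at a low level. IL33 (ENSG00000137033; chromosome 9, 6215786 to 6257983, plus strand) encodes a nuclear cytokine that acts as an alarm signal when cells are damaged. It had 16, 20 and 18 counts in knockout replicates 1 to 3, or 0.222, 0.255 and 0.230 CPM, against 0 counts in each of the 3 control libraries. A count of 0 allows up to 3 counts, 0.0417 CPM in control replicate 1. By that floor, the mean of the knockout libraries, 0.236 CPM, was at least 5.65-fold the level of any control library. IL33 passed the low-count filter through its knockout libraries alone. Of its 2 RefSeq windows, that of the downstream start holds none of the 5 motifs. The window of the upstream start is shown because a SOX core begins 182 bases before it, as CTTTGT, the reverse complement of ACAAAG.
IL33 upstream start, chr9:6214899-6215198, plus strand: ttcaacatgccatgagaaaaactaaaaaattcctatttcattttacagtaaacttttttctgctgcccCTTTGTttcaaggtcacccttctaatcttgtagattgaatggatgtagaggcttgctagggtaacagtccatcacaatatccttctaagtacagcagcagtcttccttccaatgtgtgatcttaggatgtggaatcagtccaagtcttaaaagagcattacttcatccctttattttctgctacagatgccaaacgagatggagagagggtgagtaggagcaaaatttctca

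The co-receptor went the other way. IL1RAP (ENSG00000196083; chromosome 3, 190514051 to 190659750, plus strand), which the IL-1, IL-33 and IL-36 receptors share, stood at 11.7, 10.02 and 12.2 CPM in knockout libraries and at 44.3, 44.7 and 44.98 CPM in control libraries. All 3 knockout values lay below all 3 control values, which were within 1 CPM of each other. The mean was 11.3 ± 1.12 CPM in knockout and 44.7 ± 0.319 CPM in control libraries, 3.95-fold lower in knockout (log2 fold change -1.98, SE 0.08). The RefSeq window of IL1RAP holds 73.7% G and C and none of the 5 motifs.

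Divided by exon length in kilobases, which allows levels of different genes to be set side by side, IL1RL1 and IL1RAP changed places. Within each knockout library IL1RL1 RNA per kilobase was 35.5, 45.01 and 38.5 times that of IL1RAP, against 0.760, 0.789 and 0.908 times in the control libraries. RNA of the receptor exceeded that of its co-receptor in all 3 knockout libraries and was slightly below it in all 3 control libraries. The mean ratio was 39.7 ± 4.87 in knockout and 0.819 ± 0.0787 in control libraries, a 48.4-fold difference that does not depend on the lengths chosen. IL1RL1 and IL1RAP were chosen together, and this ratio is a description of the 6 libraries.

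**Figure D1:**
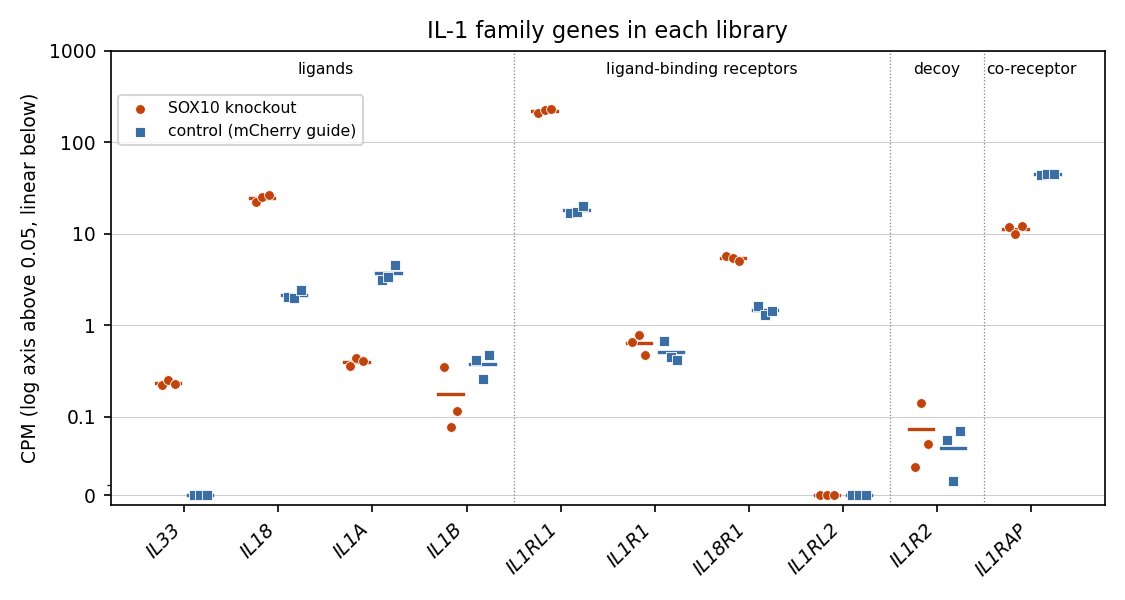
CPM of the 10 IL-1 family genes in each library (log axis above 0.05 CPM, linear below), grouped by role, with SOX10 knockout libraries as circles, control libraries as squares and bars at the means of 3 libraries. IL1RL1, IL18, IL18R1 and IL33 lie higher in all knockout libraries, IL1A and IL1RAP lie lower, and IL1B, IL1R1 and IL1R2 overlap.

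Among the other ligands, IL18 and IL1A were of opposite direction. IL18 (ENSG00000150782; chromosome 11, 112143251 to 112164117, minus strand) encodes a cytokine that caspase-1 cuts into its active form and that drives interferon-gamma production in lymphocytes. It measured 21.99, 25.2 and 26.5 CPM in knockout libraries and 2.02, 1.98 and 2.44 CPM in control libraries. Knockout libraries were all above control libraries, 24.6 ± 2.32 against 2.15 ± 0.255 CPM, or 11.4-fold higher (log2 fold change 3.52, SE 0.12).

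IL1A (ENSG00000115008; chromosome 2, 112773915 to 112784590, minus strand) encodes IL-1 alpha, which is active as the full-length protein and is released from dying cells. Its level was 0.361, 0.434 and 0.408 CPM in knockout libraries, against 3.14, 3.34 and 4.56 CPM in control libraries. No knockout library reached the lowest control library, and the most distant control value was that of replicate 3. The means were 0.401 ± 0.0370 CPM in knockout and 3.68 ± 0.768 CPM in control libraries, 9.18-fold lower in knockout (log2 fold change -3.19, SE 0.20). A window of IL1A is shown because it holds a pair of AP-1 matches, TGACTCA beginning 105 bases before the start and TGAGTCA beginning 55 bases before it.
IL1A, chr2:112784351-112784650, minus strand: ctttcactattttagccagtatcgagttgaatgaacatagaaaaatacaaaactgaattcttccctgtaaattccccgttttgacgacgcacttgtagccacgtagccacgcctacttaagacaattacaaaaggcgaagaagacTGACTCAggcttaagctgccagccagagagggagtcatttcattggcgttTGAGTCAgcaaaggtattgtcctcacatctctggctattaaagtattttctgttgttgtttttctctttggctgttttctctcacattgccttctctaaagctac
Of the 3 windows of the family with an AP-1 match, the other two are a second, overlapping IL1A window and the downstream IL1RL1 window.

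Per kilobase of exon, IL18 was 49.2, 46.8 and 52.5 times IL1A in knockout libraries, against 0.519, 0.479 and 0.432 times in control libraries. IL1A was the more abundant of the pair in all control libraries and the less abundant in all knockout libraries. The mean ratio was 49.5 ± 2.87 in knockout and 0.477 ± 0.0431 in control libraries, a 104-fold difference.

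**Figure D2:**
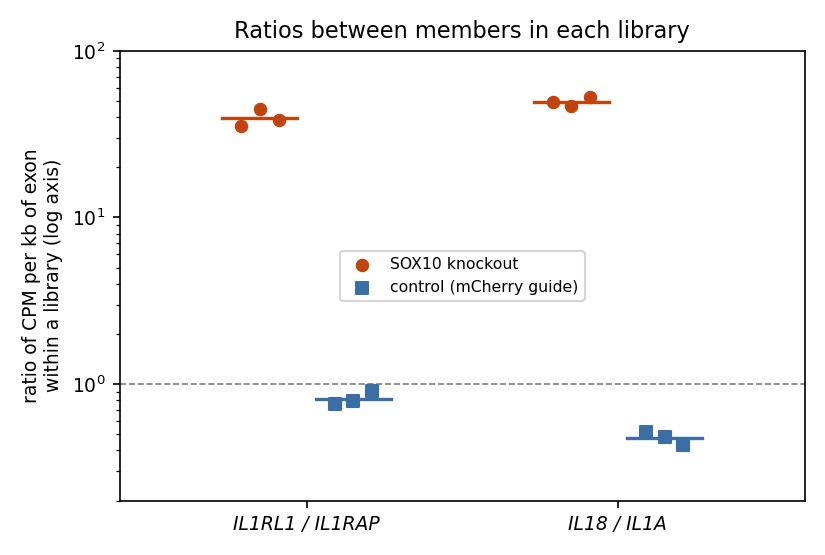
Ratio of CPM per kilobase of exon between pairs of genes within each library (log axis), for IL1RL1 over IL1RAP and IL18 over IL1A, with SOX10 knockout libraries as circles, control libraries as squares and bars at the means of 3 libraries. Both ratios lie above 1 in all 3 knockout libraries and below 1 in all 3 control libraries.

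IL1B did not separate the groups. IL1B (ENSG00000125538; chromosome 2, 112829751 to 112836903, minus strand) encodes IL-1 beta, the inflammasome-processed cytokine of myeloid cells, and had 25, 6 and 9 counts in knockout and 30, 19 and 34 counts in control libraries. In CPM these are 0.347, 0.0766 and 0.115 against 0.417, 0.256 and 0.471. Knockout replicate 1 lay within the control range and the other two knockout libraries below it. The means were 0.180 ± 0.147 CPM in knockout and 0.382 ± 0.112 CPM in control libraries (log2 fold change -1.10, SE 0.53), and without knockout replicate 1 the log2 fold change was -1.97.

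The remaining receptors were low in both groups, apart from IL18R1. IL18R1 (ENSG00000115604; chromosome 2, 102311529 to 102398775, plus strand), the ligand-binding chain for IL-18, stood at 5.74, 5.39 and 5.09 CPM in knockout libraries and 1.64, 1.31 and 1.43 CPM in control libraries. The groups did not overlap, with 5.41 ± 0.326 CPM in knockout and 1.46 ± 0.168 CPM in control libraries, 3.71-fold higher in knockout (log2 fold change 1.89, SE 0.12). The annotated IL18R1 locus spans IL1RL1 on the same strand, and the genes share 95 exon bases, 2.18% of those of IL18R1 and 1.65% of those of IL1RL1. What IL1RL1 transcripts add to the IL18R1 count was not tested.

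IL1R1 (ENSG00000115594; chromosome 2, 102064544 to 102179874, plus strand), the signalling receptor of IL-1 alpha and IL-1 beta, stood at 0.653, 0.779 and 0.472 CPM in knockout and 0.667, 0.445 and 0.416 CPM in control libraries. The ranges overlapped, with means of 0.635 ± 0.154 CPM in knockout and 0.509 ± 0.137 CPM in control libraries (log2 fold change 0.32, SE 0.28). IL1R2 (ENSG00000115590; chromosome 2, 101991844 to 102028544, plus strand), the decoy that captures IL-1 without signalling, had 2, 11 and 4 counts in knockout and 4, 1 and 5 counts in control libraries, too few to be tested. IL1RL2 (ENSG00000115598; chromosome 2, 102186973 to 102240002, plus strand), the IL-36 receptor, had 0 counts in all 6 libraries, which allows up to 0.0417 CPM.

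In knockout libraries the order of levels per kilobase of exon was led by IL1RL1 at 38.5 CPM per kilobase and IL18 at 9.34. IL18R1 followed at 1.24 and IL1RAP at 0.977, with library ranges of 1.17 to 1.32 and 0.867 to 1.05. IL1A came next at 0.189, and IL1R1 at 0.0896, IL33 at 0.0725 and IL1B at 0.0580 had ranges that overlapped one another. In control libraries IL1RAP led at 3.86 CPM per kilobase, followed by IL1RL1 at 3.17, IL1A at 1.73, IL18 at 0.817, IL18R1 at 0.335, IL1B at 0.123 and IL1R1 at 0.0719. There the ranges of IL1B, 0.0827 to 0.152, and IL1R1, 0.0587 to 0.0942, overlapped. IL1R2 stood at 0.0238 in knockout and 0.0150 in control libraries. With the length of the longest transcript in place of the exon union, IL1RAP at 2.09 stood above IL18R1 at 1.40 in knockout libraries, and IL1B at 0.110 above IL33 at 0.0893.

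Of the 10 genes, 8 had enough counts to enter the test over all genes and 6 of those passed an adjusted p of 0.05, 4 higher (IL1RL1, IL18, IL18R1 and IL33) and 2 lower (IL1A and IL1RAP) in knockout libraries. Over all 19263 genes tested, 28.0% passed, 14.0% higher and 14.0% lower. The groups did not overlap for these 6 genes, and for 41.6% of all tested genes, 20.0% with knockout above and 21.5% with knockout below. Because these genes were chosen from the same contrast, nothing is read from the counts. IL33, among these 6, entered the test through its knockout libraries alone. Summed over the 10 genes, the level was 248 to 278 CPM in knockout and 69.0 to 74.7 CPM in control libraries, most of it IL1RL1 in knockout and IL1RAP in control libraries.

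Both clusters of the family on chromosome 2 held genes of very different level. The receptor cluster (101991844 to 102452565, 461 kilobases) holds IL1R2, IL1R1, IL1RL2, IL1RL1, IL18R1 and IL18RAP in this order. High values were those of IL1RL1 and, much lower, of IL18R1, while IL1RL2 and IL18RAP had 0 and 1 counts in all libraries together. IL18RAP is the co-receptor for IL-18, so of the IL-18 receptor the ligand-binding chain alone was detected above the floor. Of the nearest protein-coding genes outside the cluster, chosen by position, MAP4K4 stood at 171 ± 21.5 CPM in knockout and 207 ± 24.9 CPM in control libraries (adjusted p = 0.112) and MFSD9 at 6.47 ± 1.03 and 5.92 ± 0.528 CPM in the same order (adjusted p = 0.536). CREG2 was higher, 0.347 ± 0.0748 against 0.0229 ± 0.0211 CPM (log2 fold change 3.82, adjusted p = 0.00135), and passed the low-count filter through its knockout libraries alone. RFX8, SLC9A4 and SLC9A2 had at most 2 counts in all libraries together.

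The ligand cluster (112773915 to 113134016, 360 kilobases) holds IL1A, IL1B, IL37, the IL-36 genes IL36G, IL36A, IL36B and IL36RN, IL1F10 and the antagonist gene IL1RN. IL37, which encodes a cytokine that dampens inflammation, had 0, 4 and 10 counts in knockout libraries against 33, 35 and 28 counts in control libraries. The groups did not overlap. Pooled over libraries and corrected for library size, IL37 was 7.19-fold lower in knockout libraries (95% exact counting interval 4.08 to 13.6; log2 fold change -2.82, adjusted p = 0.00885). IL37 passed the low-count filter through its control libraries alone. IL1RN and IL36A had 0 counts in all libraries, IL36B, IL36RN and IL1F10 had 1 each and IL36G had 2. On the sides of the cluster, PAX8 was higher in knockout, 4.71 ± 0.315 against 1.14 ± 0.0870 CPM (log2 fold change 2.05, adjusted p = 4.00e-06), and CKAP2L was lower, 71.9 ± 1.24 against 106 ± 1.33 CPM (log2 fold change -0.56, adjusted p = 8.62e-05). SLC20A1 was slightly lower (log2 fold change -0.25, adjusted p = 0.0194), and neither PSD4 (adjusted p = 0.914) nor ZNG1B (adjusted p = 0.424) passed.

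**Figure D3:**
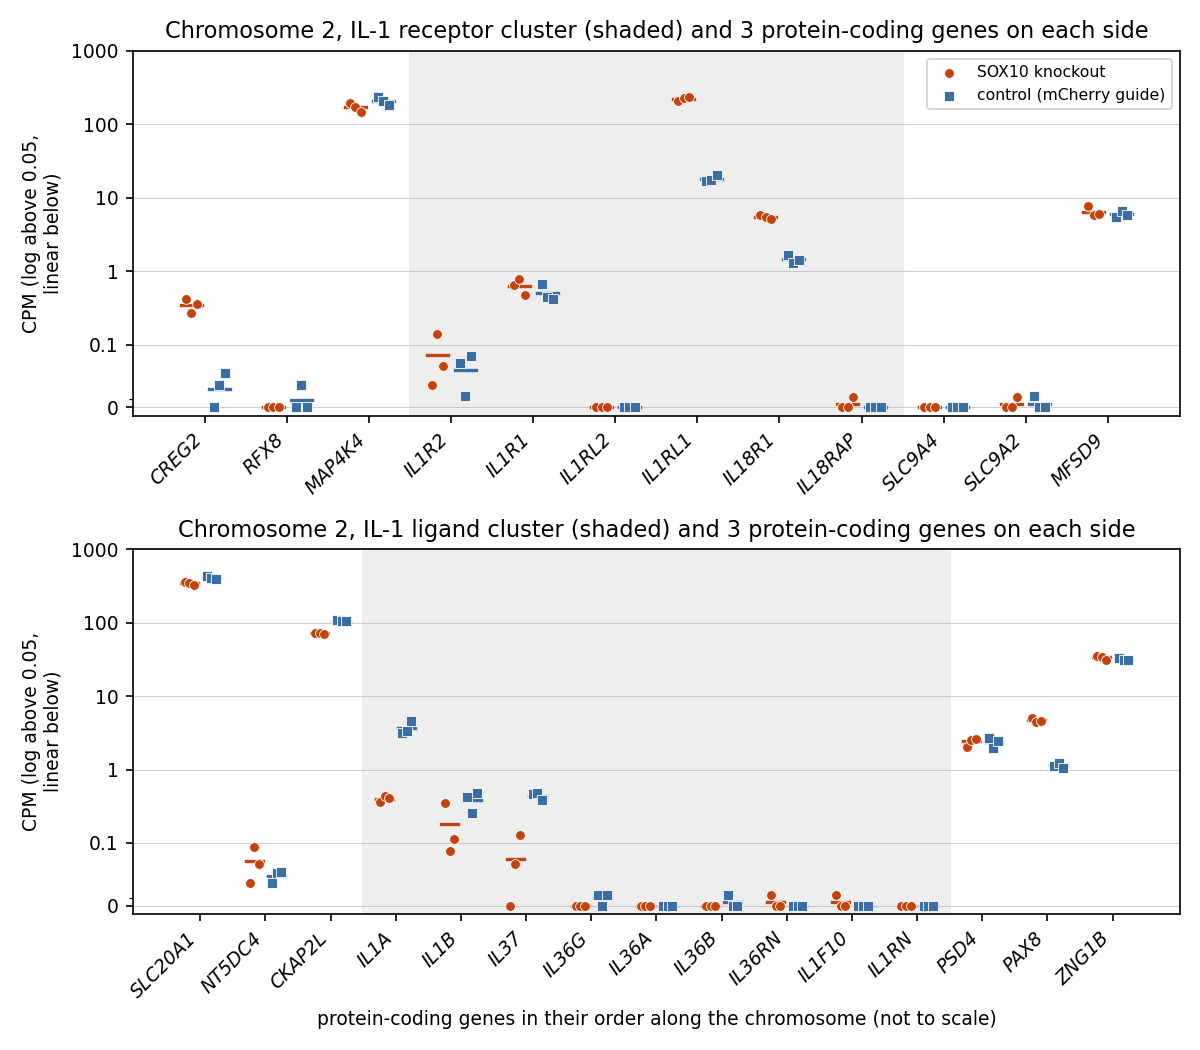
CPM in each library (log axis above 0.05 CPM, linear below) of the protein-coding genes of the IL-1 receptor cluster and the IL-1 ligand cluster, shaded, with 3 neighbours on each side in their order on chromosome 2; circles are SOX10 knockout libraries, squares control libraries, and bars are means of 3 libraries. IL1RL1 and IL18R1 lie higher in knockout inside the first cluster, and IL1A and IL37 lie lower inside the second, with several other genes of the clusters at or near 0.

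Of the other receptors and antagonists outside the clusters, 1 passed the test. IL1RAPL1, a relative of IL1RAP known from synapse formation, fell to 25.6 ± 0.293 CPM in knockout libraries, against 33.8 ± 2.23 CPM in control libraries (log2 fold change -0.40, adjusted p = 0.00242). SIGIRR, a receptor that restrains IL-1 and Toll-like signalling, stood at 4.03 ± 0.435 CPM in knockout and 3.27 ± 0.262 CPM in control libraries and did not pass (log2 fold change 0.30, adjusted p = 0.0984); without knockout replicate 1 it passed (adjusted p = 0.0437). IL18BP, a secreted trap for IL-18, stood at 1.24 ± 0.604 CPM in knockout and 1.18 ± 0.0794 CPM in control libraries (adjusted p = 0.913) and overlaps the more abundant NUMA1 on the opposite strand. IL1RAPL2 had 0 counts. Of the 8 other ligands and antagonists 2 were tested, of which 1 fell, and of the 4 other receptors 2 were tested, of which 1 fell. Over all tested genes, 14.0% fell and 14.0% rose.

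Of 14 genes that process and release IL-1 family cytokines, 12 were tested, 8 rose, 1 fell and 3 did not pass, where 14.0% of all tested genes passed in each direction, with a median log2 fold change of 0.27 where that of all tested genes was -0.02. CASP1, the protease that matures IL-1 beta and IL-18, had 39, 44 and 47 counts in knockout libraries against 1, 2 and 1 counts in control libraries. The groups were far apart, and CASP1 passed the low-count filter through its knockout libraries alone. The ratio of pooled counts, corrected for library size, was 31.0 (95% exact counting interval 11.8 to 116), and the means were 0.568 ± 0.0292 CPM in knockout and 0.0182 ± 0.00755 CPM in control libraries (log2 fold change 4.83, adjusted p = 2.76e-05).

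CAPN2, a calpain and the most abundant gene of the list, rose to 535 ± 17.1 CPM in knockout libraries, against 340.1 ± 12.7 CPM in control libraries (log2 fold change 0.65, adjusted p = 6.30e-05). CASP4, the sensor of intracellular lipopolysaccharide, rose to 83.3 ± 9.71 CPM in knockout libraries, against 44.1 ± 5.88 CPM in control libraries (log2 fold change 0.92, adjusted p = 4.41e-04). AIM2, an inflammasome sensor of cytosolic DNA, fell to 8.26 ± 0.810 CPM in knockout libraries, against 13.5 ± 1.84 CPM in control libraries (log2 fold change -0.71, adjusted p = 0.00218). NLRP3 and PYCARD were chosen after their values were seen. NLRP3, an inflammasome sensor, rose to 2.01 ± 0.114 CPM in knockout libraries, against 0.768 ± 0.305 CPM in control libraries (log2 fold change 1.39, adjusted p = 0.00468), while PYCARD, the adaptor that joins such sensors to caspase-1, had 1 count in all 6 libraries together. The number of genes that rose was 5 without control replicate 2, without knockout replicate 2 or without knockout replicate 3.

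Of 22 genes of the signalling path below the receptors 21 were tested, 2 rose, 3 fell and 16 did not pass, with a median log2 fold change of 0.02. The share past the threshold, 23.8%, is near the 28.0% of all tested genes, and nothing is read from it. IRAK2, a kinase that sustains signalling, rose to 10.4 ± 0.681 CPM in knockout libraries, against 3.35 ± 0.392 CPM in control libraries (log2 fold change 1.64, adjusted p = 8.91e-06). PELI1 and PELI2, ubiquitin ligases that act on IRAK proteins, fell. PELI1 measured 9.98 ± 0.877 CPM in knockout and 30.7 ± 0.421 CPM in control libraries (log2 fold change -1.62, adjusted p = 1.39e-06). PELI2 measured 3.31 ± 0.342 CPM in knockout and 12.7 ± 0.474 CPM in control libraries (log2 fold change -1.94, adjusted p = 1.58e-06). TAB3, which links TRAF6 to the kinase TAK1, fell to 57.3 ± 2.99 CPM in knockout libraries, against 109.9 ± 5.07 CPM in control libraries (log2 fold change -0.94, adjusted p = 1.32e-05).

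IKBKG, the regulatory subunit of the IKK complex, was higher by a small amount, 14.01 ± 0.610 CPM in knockout and 11.7 ± 0.542 CPM in control libraries (log2 fold change 0.26, adjusted p = 0.0273). Its call was lost without control replicate 2 (adjusted p = 0.123), control replicate 3 (0.0559), knockout replicate 1 (0.0636) or knockout replicate 2 (0.109), and with no low-count filter (0.0553), which leaves 1 signalling gene that rose. IRAK1, the most abundant gene of the list, stood at 306 ± 14.8 CPM in knockout and 327 ± 8.19 CPM in control libraries and did not pass (adjusted p = 0.308). The adaptor gene MYD88, chosen after its values were seen, stood at 25.4 ± 1.84 CPM in knockout and 28.6 ± 2.58 CPM in control libraries (adjusted p = 0.206).

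Genes known to be induced by IL-1 in many cell types moved both ways, and all of them also respond to other signals. Of 38 on the list 31 were tested, 14 rose, 6 fell and 11 did not pass, where 14.0% of all tested genes passed in each direction. The median log2 fold change was 0.28, against -0.02 for all tested genes. The matrix metalloproteinase genes MMP3 and MMP1 differed most. MMP3 reached 28.9 ± 1.20 CPM in knockout libraries, against 0.880 ± 0.149 CPM in control libraries (log2 fold change 5.04, adjusted p = 4.50e-08). MMP1 reached 124 ± 13.2 CPM in knockout libraries, against 4.18 ± 0.594 CPM in control libraries (log2 fold change 4.89, adjusted p = 8.15e-08).

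TNFAIP3, which encodes the NF-kappaB inhibitor A20, rose to 70.7 ± 5.82 CPM in knockout libraries, against 8.79 ± 1.02 CPM in control libraries (log2 fold change 3.01, adjusted p = 2.57e-07), and overlaps the antisense gene WAKMAR2. PTGES, the inducible prostaglandin E synthase gene, rose to 85.7 ± 2.63 CPM in knockout libraries, against 36.1 ± 1.40 CPM in control libraries (adjusted p = 1.53e-06). IL11, a cytokine of the IL-6 family, rose to 45.4 ± 1.12 CPM in knockout libraries, against 11.8 ± 1.85 CPM in control libraries (log2 fold change 1.95, adjusted p = 3.43e-06).

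Among those that fell, IER3, an early response gene, measured 35.1 ± 0.826 CPM in knockout and 59.2 ± 0.526 CPM in control libraries (log2 fold change -0.76, adjusted p = 1.76e-05). NFKB1, the p105 precursor gene and the most abundant of the list over all 6 libraries, measured 57.4 ± 3.49 CPM in knockout and 95.6 ± 5.58 CPM in control libraries (log2 fold change -0.74, adjusted p = 9.91e-05). The neutrophil chemokine genes CXCL1 and CXCL3 were lower as well. CXCL1 stood at 15.1 ± 0.576 CPM in knockout and 26.2 ± 3.23 CPM in control libraries (log2 fold change -0.80, adjusted p = 3.13e-04). CXCL3 stood at 0.326 ± 0.0595 CPM in knockout and 1.12 ± 0.0731 CPM in control libraries (log2 fold change -1.77, adjusted p = 2.91e-04). TNFAIP6, a hyaluronan-binding protein gene, had 3, 1 and 1 counts in knockout against 17, 17 and 22 counts in control libraries. It was 11.7-fold lower in knockout (95% exact counting interval 4.74 to 37.6, edgeR adjusted p = 1.00e-03). Its control libraries alone carried it past the low-count filter.

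CXCL8, IL6 and NFKBIA were chosen after their values were seen, as a chemokine, a cytokine and an NF-kappaB inhibitor often used to read IL-1 signalling. IL6 had 65, 73 and 66 counts in knockout libraries against 2, 2 and 10 counts in control libraries, a ratio of pooled counts of 13.9, corrected for library size (95% exact counting interval 8.10 to 25.9; adjusted p = 3.42e-04), and overlaps the more abundant STEAP1B on the opposite strand. IL6 passed the low-count filter through its knockout libraries alone. CXCL8 stood at 30.98 ± 4.64 CPM in knockout and 19.6 ± 5.31 CPM in control libraries (log2 fold change 0.66, adjusted p = 0.0294), and NFKBIA at 15.9 ± 0.741 and 13.1 ± 0.499 CPM in the same order (log2 fold change 0.28, adjusted p = 0.0190). The CXCL8 call was lost without control replicate 1 (adjusted p = 0.0628), control replicate 2 (0.114), knockout replicate 2 (0.0788) or knockout replicate 3 (0.0908). The NFKBIA call was lost without control replicate 2 (adjusted p = 0.101), knockout replicate 2 (0.0610) or knockout replicate 3 (0.0670).

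**Figure D4:**
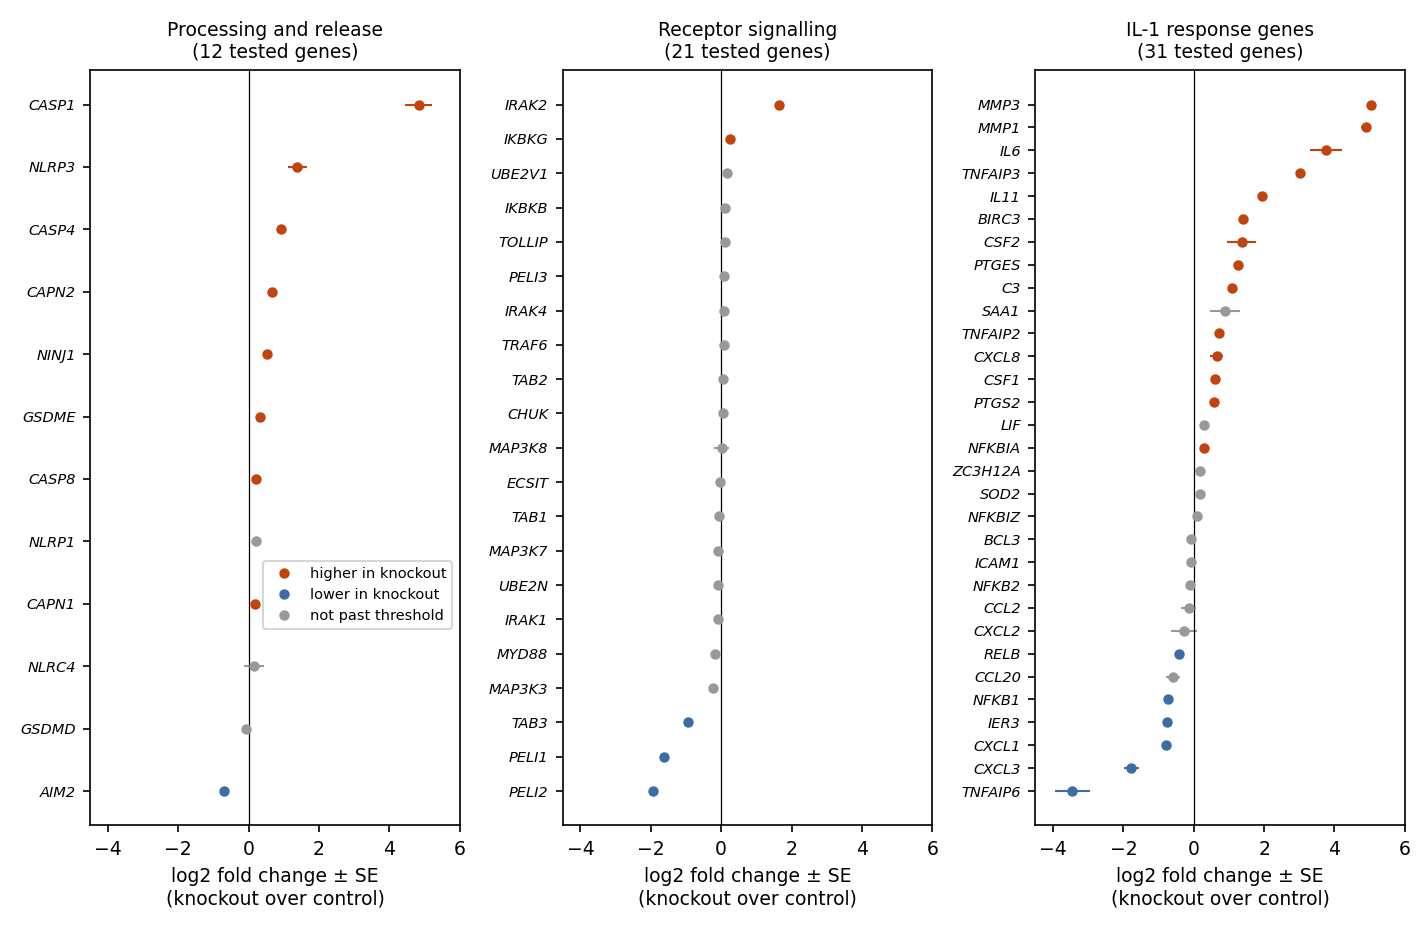
Log2 fold change (knockout over control) with its standard error, from the fit over all genes, for the tested genes of the lists for processing and release, receptor signalling and IL-1 response; genes past an adjusted p of 0.05 are coloured by direction and the others grey. Most signalling genes lie near 0, while CASP1, MMP3 and MMP1 lie beyond 4 and TNFAIP6 lies lowest.

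Markers of cell types that make or answer IL-1 family cytokines were counted beside the family, and some differed between the groups. Over all tested genes, 14.0% rose and 14.0% fell. Of 10 myeloid markers 4 were tested, 1 rose and 1 fell, with TYROBP and AIF1 at 0, and the summed level was 2.78 to 3.95 CPM in knockout and 11.4 to 14.9 CPM in control libraries. The most abundant was LYZ, the lysozyme gene, at 1.64 ± 0.360 CPM in knockout and 12.1 ± 1.80 CPM in control libraries. The myeloid marker that rose was CSF1R, at 0.748 ± 0.159 CPM in knockout and 0.174 ± 0.107 CPM in control libraries. Of 8 endothelial markers 6 were tested, 2 rose and 1 fell, with a summed level of 5.20 to 5.94 CPM in knockout and 8.42 to 10.5 CPM in control libraries. The VEGF receptor gene KDR, the 1 that fell, made up most of the control sum, at 0.175 ± 0.128 CPM in knockout and 6.32 ± 1.10 CPM in control libraries. The 2 that rose were PECAM1, at 1.13 ± 0.156 against 0.293 ± 0.0877 CPM, and CDH5, at 1.96 ± 0.0579 against 0.431 ± 0.121 CPM, in the same order. Keratinocyte markers, with 2 of 4 tested higher and 1 lower, summed to 56.8 to 71.4 CPM in knockout and 48.97 to 65.97 CPM in control libraries, most of it KRT10, and KRT1 was at 0. Fibroblast markers, with 7 of 10 tested higher and 1 lower, summed to 28.1 to 30.3 CPM in knockout and 16.8 to 20.05 CPM in control libraries, led by LUM. Melanocyte and melanoma markers, with 3 of 9 tested higher and 4 lower, summed to 642 to 693 CPM in knockout and 453 to 481 CPM in control libraries, most of it AXL, a receptor kinase gene of dedifferentiated melanoma. Their part in the values of the IL-1 family was not tested.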

How the data were processed

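Total RNA of A375 cells was turned into stranded mRNA libraries, per the labels' protocols. The submitters' processing notes name HISAT2, HTSeq and the build hg38. The authors deposited raw counts per gene with no normalization. Tool versions, the annotation and the strand setting are not given in any source used here. If strand was ignored, reads of genes that overlap on opposite strands cannot be told apart. Gene names, lengths and coordinates came from GENCODE release 29 on GRCh38, the assembly also called hg38, which held 58676 of the 58721 identifiers.

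edgeR 4.0.16 in R 4.3.3 was run on the counts of 19263 genes kept by filterByExpr and scaled by TMM. Knockout and control, 3 libraries each and no covariate, were compared by the two-sided quasi-likelihood test, with Benjamini-Hochberg adjustment over all genes tested and a threshold of 0.05. CPM use the TMM-scaled library sizes. Replicates differed beyond sampling noise, so each library counted once. The procedure was tested on simulated data. Counting intervals are exact (Clopper-Pearson) at 95%.

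The members, gene lists, tests and alternatives were chosen with earlier results of these data known. Named besides the members and SOX10 were all genes of the lists of other ligands and receptors, the 3 genes with the smallest p in each direction and the most abundant gene of the processing and signalling lists, 5 in each direction and the most abundant for the response list, the most abundant of each marker list, genes overlapping a member, and the 3 tested genes with a mean of 1 CPM or more most correlated with IL33. Of the genes overlapping a member, IL1R1-AS1 and AC108747.1 had 0 counts in all libraries together, GCNT1P3 had 1 and RN7SKP296 had 3. Cluster neighbours were named by position. Other genes were chosen after seeing their values. 1 overlapping gene is not reported here.

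As alternatives, DESeq2 1.42.0, limma-voom (limma 3.58.1), DESeq2 size factors or total counts as scaling, no low-count filter, a filter of 1 CPM or more in 3 libraries, a replicate block and leaving out each library in turn were tried. Promoter windows are from RefSeq, and IL18 was not matched. Tables used pandas 2.3.3, numpy 2.4.6 and scipy 1.17.1 under Python 3.11.15, and plots matplotlib 3.10.9.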

Additional observations from a re-analysis of the deposited data

How the results depend on the processing

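Each tested IL-1 family gene kept the direction of its log2 fold change in every alternative that gave one, from 3.56 to 3.69 for IL1RL1, 3.46 to 3.62 for IL18, 1.81 to 1.99 for IL18R1, -3.28 to -3.01 for IL1A, -2.04 to -1.89 for IL1RAP, -1.97 to -0.72 for IL1B and 0.15 to 0.57 for IL1R1. Fitted values of IL33, whose control counts are all 0, moved most, from 5.14 with limma-voom to 7.20 without knockout replicate 1, and bound nothing. Between 5 and 7 of the tested IL-1 family genes were past the threshold, against 6 in the main fit. The number was 7 without knockout replicate 1 and 7 with the replicate number as a block. It was 5 with at least 1 CPM required in 3 libraries, a filter that IL33 does not pass. The ratio of IL1RL1 to IL1RAP per kilobase was 26.7 in knockout and 0.552 in control libraries with the longest transcript as length, and the direction held. With the same length, the ratio of IL18 to IL1A was 76.7 in knockout and 0.738 in control libraries, nearer to 1 in control than by exon union. Leaving out each library in turn gave 1986 to 2935 genes higher and 1794 to 2958 lower, 1794 without knockout replicate 2, where all libraries gave 2694 and 2702. It gave 5 to 7 processing genes that rose and 1 to 2 signalling genes that rose. Without a low-count filter 1 signalling gene rose. Scaling by total counts gave 3021 genes higher and 2144 lower, 58.5% higher in place of 49.9%. For the other named genes, 358 values kept their call, 12 lost it and 3 gained it. Whether shared replicate numbers pair the libraries was not settled, and the main fit treated them as unpaired. Deviations of same-numbered libraries had correlations of 0.375 for replicate 1, 0.000414 for replicate 2 and 0.398 for replicate 3. Those of differently numbered libraries lay between -0.406 and 0.0783. With the replicate number as a block, 4637 genes were higher and 5176 lower, 8 signalling genes fell, and SIGIRR (adjusted p = 0.0150) and IRAK1 (adjusted p = 0.00618) passed the threshold. Depth limits IL33, IL1B, IL37, IL1R2, CASP1, TNFAIP6, IL6, CREG2 and DCT, with counts near the floor in at least 1 group. The cause of the other changes was not tested.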

Other observations

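By Pearson correlation of log2(CPM + 0.1) with IL33 over the 6 libraries, the nearest of the 14023 tested genes that averaged 1 CPM or more were RFTN1, IGFBP4 and H4C14. RFTN1, a lipid raft protein gene, stood at 17.6 ± 0.750 CPM in knockout and 7.06 ± 0.0859 CPM in control libraries, with r = 0.9997. IGFBP4, a binding protein gene for insulin-like growth factors, stood at 319.9 ± 9.37 CPM in knockout and 163 ± 1.33 CPM in control libraries, with r = 0.9996. H4C14, a histone H4 gene, stood at 12.7 ± 0.536 CPM in knockout and 3.41 ± 0.0484 CPM in control libraries, with r = 0.9996. These correlations are across the 2 groups of libraries and reflect the difference between them, and 388 genes had r over 0.99, so the order among them is a description with no test.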
